A study of Canis lupus familiaris with 18 samples.

Results

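Immune checkpoint ligands and receptors were examined in RNASeq data from canine high grade oligodendroglioma (HGO), a malignant brain tumor. The 10 genes were the programmed death ligands CD274 and PDCD1LG2 and their receptor PDCD1, the ligands CD80 and CD86 and their inhibitory receptor CTLA4, the ligand LGALS9 and the receptor HAVCR2, the B7 family member CD276, and CD47. They were found by symbol, and they are 10 of the 29993 genes in the deposited counts. The dogs were 11 French bulldogs and 7 dogs of related breeds, 4 of them boxers and 3 Boston terriers, which formed the comparison group. All tumors were labelled as prosencephalic HGO. According to the study's methods, the tumors were resected before any trial treatment, and RNA was extracted from sections of fixed tissue in paraffin. The sample labels give the breed of each dog but not its age. According to the study, the French bulldogs were younger on average, more often female and differed in tumor location, without matching. Differences between the groups cannot be told apart from these. The comparison addresses whether the tumor and its immune environment differ between French bulldogs and the related breeds.

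Immune checkpoints are pairs of surface molecules that raise or lower the activity of immune cells on contact. PD-1, the product of PDCD1, is carried mainly by activated T cells and is engaged by PD-L1 (CD274) and PD-L2 (PDCD1LG2), whose genes are induced by interferon-gamma. CD80 and CD86 on antigen-presenting cells stimulate T cells through CD28 and are captured by CTLA4, while CD47 signals to the receptor SIRPA on macrophages and lowers phagocytosis.

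Each library had between 8212452 and 13169880 reads counted on genes. Levels are given as CPM, the counts scaled to a common normalized library size. A level of 3 counts, taken as the smallest that could be shown, came to between 0.223 and 0.351 CPM on this scale, which covers counting error only. Gene lengths were not used, so levels are compared between dogs and not between genes. French bulldog 6 stood apart from the other libraries. It had 0 counts of the oligodendrocyte lineage factors OLIG2 and NKX2-2, with levels of 87.7 to 279 CPM and 21.0 to 136 CPM in the other 17 dogs, and its values are given separately throughout. French bulldogs 2 and 8 carry the same case number in their labels. The log2 CPM of these libraries correlated at r = 0.981 across 16495 genes, against 0.765 to 0.941 for the other pairs among the 10 French bulldogs without number 6. The study describes each library as a separate dog, yet it lists the same age, sex and tumor site for French bulldogs 2 and 8. They were also summed as 1 dog, and in either case p-values measure the spread between the labelled samples. In bulk tissue, fewer cells of a type and less RNA per cell cannot be told apart.

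Of the 10 genes, 7 passed the filter on low counts, with and without French bulldog 6. PDCD1, CTLA4 and HAVCR2 had too few counts. Outside French bulldog 6, PDCD1 had 0 to 8 counts per dog, CTLA4 had 0 to 18 and HAVCR2 had 0 to 13. At least 3 counts were present in 9 of the 18 dogs for PDCD1, in 4 for CTLA4 and in 13 for HAVCR2. The other 7 genes, all of them ligands, had at least 3 counts in 17 dogs for PDCD1LG2 and in all 18 for the rest.

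CD274 (ENSCAFG00000002120) had a lowest level of 4.13, a median of 8.76 and a highest level of 14.5 CPM in the 10 French bulldogs. In the comparison group its lowest, median and highest levels were 7.61, 9.36 and 11.7 CPM. In French bulldog 6 it had 224 CPM, from 2154 counts. The groups overlapped: French bulldogs 5 and 7 lay above all 7 comparison dogs, and 5 French bulldogs lay below all of them. The 2 lowest dogs, at 4.13 and 4.68 CPM, were French bulldogs 2 and 8, the pair with a common case number. CD274 varied more among the 10 French bulldogs (8.92 ± 3.33 CPM, SD, n = 10) than in the comparison group (9.80 ± 1.49 CPM, SD, n = 7), a difference in spread that was not tested.

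PDCD1LG2 (ENSCAFG00000002121), the neighbour of CD274 on the chromosome in the RefSeq annotation, ranged from 0 to 2.60 CPM in the 10 French bulldogs with a median of 0.902 CPM. It ranged from 0.324 to 1.90 CPM in the comparison group with a median of 1.03 CPM. French bulldog 1 was the highest of these 17 dogs and French bulldog 2, with 0 counts, was the lowest. French bulldog 6 had 68.2 CPM, from 655 counts. The receptor PDCD1 (ENSCAFG00000013184) had 0.367 ± 0.216 CPM (SD, n = 10) in the French bulldogs and 0.220 ± 0.224 CPM (SD, n = 7) in the comparison group, with 2.08 CPM from 20 counts in French bulldog 6. French bulldogs 5 and 7 had the highest PDCD1 levels outside French bulldog 6, at 0.703 and 0.710 CPM, but these rest on 6 and 8 counts.

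CD80 (ENSCAFG00000010997) had lowest, median and highest levels of 1.21, 3.14 and 10.8 CPM in the 10 French bulldogs and 1.79, 2.43 and 7.81 CPM in the comparison group. The highest dogs were French bulldog 11 in the first group and boxer 1 in the second, and the groups overlapped over most of their range. CD86 (ENSCAFG00000011751) had lowest, median and highest levels of 3.91, 11.7 and 34.0 CPM in the French bulldogs and 4.35, 10.6 and 18.8 CPM in the comparison group. French bulldogs 1 and 11, at 26.2 and 34.0 CPM, were the only dogs outside French bulldog 6 above all comparison dogs, and French bulldog 4 was the lowest for both ligands. French bulldog 6 had 80.0 CPM of CD80 and 237 CPM of CD86.

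CTLA4 (ENSCAFG00000012876), which lies between the genes of the related receptors CD28 and ICOS, had 289 counts or 30.1 CPM in French bulldog 6. French bulldogs 9, 7 and 1 had 18, 7 and 5 counts, and 3 other French bulldogs had 1 count each. In the comparison group Boston terrier 6 had 2 counts, and Boston terrier 2 and boxer 3 had 1 count each. The other 8 dogs, 4 French bulldogs and 4 of the comparison group, had 0 counts, which allows a level of up to 0.351 CPM in the shallowest of these libraries.

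LGALS9 (ENSCAFG00000018641), the gene of galectin-9, had lowest, median and highest levels of 2.23, 6.60 and 33.6 CPM in the 10 French bulldogs and 4.89, 8.11 and 11.9 CPM in the comparison group. French bulldogs 11, 1 and 3 lay above all comparison dogs and 4 French bulldogs lay below all of them. French bulldog 6 had 210 CPM. HAVCR2 (ENSCAFG00000032010), the gene of TIM-3, a receptor for galectin-9 on T cells and myeloid cells, ranged from 0 to 1.00 CPM in the French bulldogs and from 0.108 to 0.902 CPM in the comparison group. In French bulldog 6 it had 0.729 CPM from 7 counts, and 3 other dogs were higher.

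CD276 (ENSCAFG00000017820), the gene of the B7 family member B7-H3, had lowest, median and highest levels of 5.86, 9.75 and 43.8 CPM in the 10 French bulldogs and 7.37, 10.6 and 11.2 CPM in the comparison group. French bulldog 11 alone accounted for the upper end of the range, since the next highest of the 10, French bulldog 10, had 13.7 CPM. CD47 (ENSCAFG00000009887) had lowest, median and highest levels of 97.4, 151 and 225 CPM in the French bulldogs and 97.7, 137 and 219 CPM in the comparison group. These were the ligands for which French bulldog 6 did not stand out, with 13.9 CPM of CD276 and 197 CPM of CD47, and with 1 and 4 dogs higher.

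**Figure D1:**
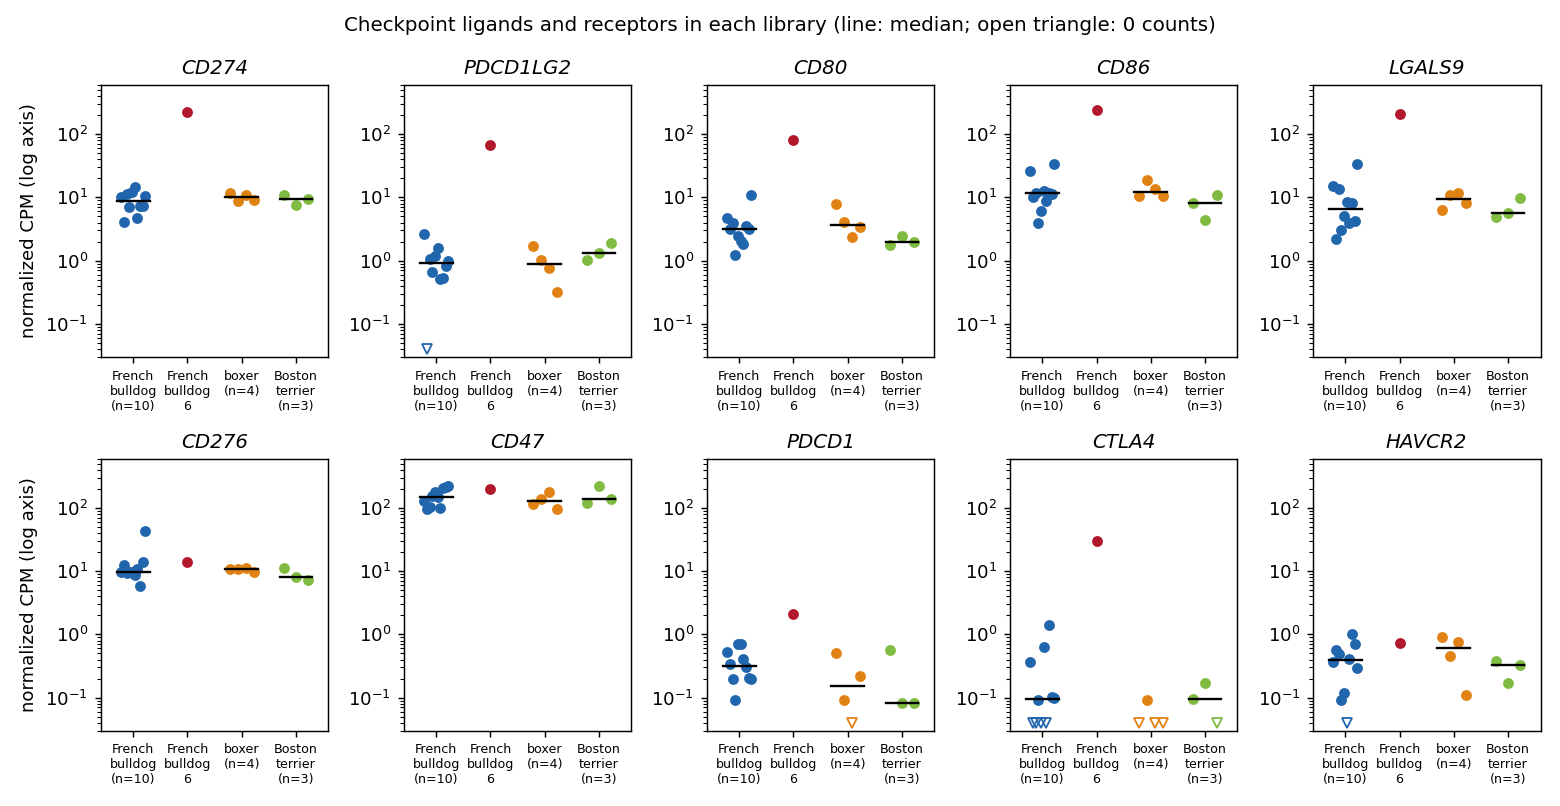
Level of each gene in each library, in normalized CPM on a log axis, with a point for each dog, a line at the group median and an open triangle for 0 counts. French bulldog 6 lies at 224 CPM for CD274 and at 68.2 CPM for PDCD1LG2, above all other dogs, and lies within the range of the others for CD276, CD47 and HAVCR2.

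French bulldog 11 was the highest of the 17 dogs without French bulldog 6 for 5 of the 10 genes (LGALS9, CD276, CD80, CD86 and CD47). French bulldog 1 was among the 3 highest for 5 of them (PDCD1LG2, CTLA4, LGALS9, CD80 and CD86). Both dogs also had the highest macrophage and microglia marker scores, at 1.40 for French bulldog 1 and 1.20 for French bulldog 11, and their part in these levels was not tested. Without French bulldog 6, the coefficient of variation between dogs beyond counting error, taken within groups, was 31.7% for CD47, 35.6% for CD274, 47.7% for CD276, 54.1% for CD86, 57.7% for CD80, 61.3% for PDCD1LG2 and 65.7% for LGALS9. The median over 16403 genes was 38.5%, so CD47 and CD274 were less variable between dogs than the median gene and the other 5 were more variable.

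None of the 7 genes tested passed the threshold between French bulldogs and the comparison group. By edgeR's quasi-likelihood test over all 18 libraries, 0 of the 7 had a Benjamini-Hochberg adjusted p under 0.05, and 0.00606% of the 16495 genes tested did (1 gene). At an unadjusted p under 0.05, 2 of the 7 were higher in French bulldogs, PDCD1LG2 and CD86, while 10.6% of all genes tested were past this limit and 7.02% were past it and higher. All 7 fitted differences were above 0, with a median log2 fold change of 1.63, against 0.04 over all genes tested. On the same 18 libraries the median was 0.23 over the 7 genes with limma-voom, against -0.06 over all genes, and 0.21 over the 10 genes with DESeq2 and no filter, against 0.07. With DESeq2 the log2 fold change was 0.12 for CD80, 0.24 for LGALS9, 0.32 for CD86, 0.46 for CD276 and 0.18 for CD47. It was -0.11 for CD274 and -0.19 for PDCD1LG2. DESeq2 replaces outlying counts by default, and without French bulldog 6 it gave -0.11 and -0.18 for these 2 ligands. In the edgeR fit the log2 fold change was 2.60 for PDCD1LG2 (SE 1.19, adjusted p = 0.458 by edgeR), 1.63 for CD86 (SE 0.76, adjusted p = 0.463) and 1.54 for CD274 (SE 0.78, adjusted p = 0.495). It was 1.76 for LGALS9 and 1.64 for CD80, with adjusted p of 0.477 and 0.490 by the same edgeR test. CD276 and CD47 had the smallest fitted differences, at 0.44 and 0.16, with adjusted p of 0.624 and 0.824 by edgeR.

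The fitted differences of 5 ligands rested on French bulldog 6. Without it, the median log2 fold change of the 7 genes was 0.16, against 0.05 over all 16403 genes tested, and 0 of 7 were past an unadjusted p of 0.05, against 10.8% of all genes, or 6.92% counting those higher in French bulldogs. An adjusted p under 0.05 was given to 0.0183% of all genes tested (3 genes) and to 0 of the 7, whose adjusted p ranged from 0.628 to 0.941 in edgeR. The log2 fold changes of CD274 and PDCD1LG2 turned to -0.10 (95% interval -0.60 to 0.40) and -0.17 (-1.23 to 0.90). Those of CD80 and CD86 fell to 0.16 (-0.71 to 1.03) and 0.36 (-0.45 to 1.17), and that of LGALS9 to 0.28 (-0.72 to 1.28). CD276 and CD47 were at 0.47 (-0.23 to 1.17) and 0.15 (-0.29 to 0.60). With these 17 libraries the intervals allow French bulldogs to have between 0.658 and 1.32 times the CD274 level of the comparison group, but between 0.425 and 1.86 times the PDCD1LG2 level. Without French bulldog 11 as well, CD80 and LGALS9 turned to -0.19 and -0.18 and CD276 fell to 0.04. The CD276 value rested on French bulldog 11 with French bulldog 6 kept too, since it was 0.07 without French bulldog 11 alone.

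The difference between groups in the receptors below the filter was tested on CPM by an exact permutation test, two-sided, over all splits of the dogs. For CTLA4 the mean over all 18 libraries was 2.93 CPM higher in French bulldogs (exact p = 0.447), a difference that French bulldog 6 decides. Without French bulldog 6 it was 0.217 CPM higher (exact p = 0.235). For PDCD1 the differences with and without French bulldog 6 were 0.303 CPM (exact p = 0.182) and 0.147 CPM (exact p = 0.192). For HAVCR2 they were -0.00934 CPM (exact p = 0.949) and -0.0388 CPM (exact p = 0.795). At this depth no difference in these receptors could be shown by this test outside French bulldog 6. When the filter was left out of the edgeR fit, CTLA4 had a log2 fold change of 5.65 with an unadjusted p of 0.00523 and an adjusted p of 0.420, and without French bulldog 6 one of 2.23 with an unadjusted p of 0.0486 and an adjusted p of 0.474. None of the 10 checkpoint genes separated the 10 French bulldogs from the 7 comparison dogs without overlap, which 0.0606% of the genes tested did.

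**Figure D2:**
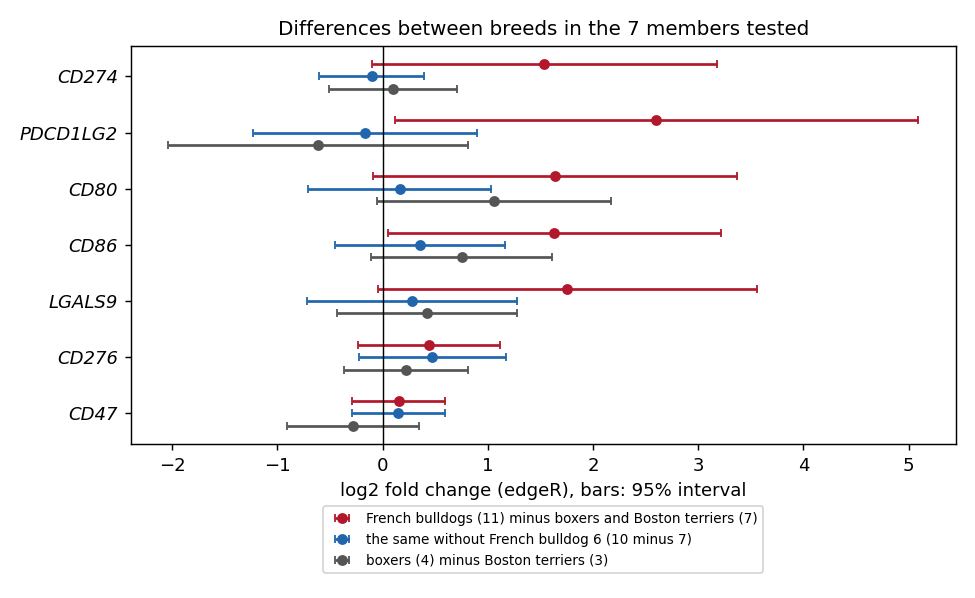
Log2 fold change of the 7 genes tested, as points with 95% intervals, for French bulldogs minus the comparison group with and without French bulldog 6, and for boxers minus Boston terriers. Without French bulldog 6 all 7 intervals include 0, and CD274 moves from 1.54 to -0.10.

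The breeds of the comparison group were then set against each other. In the labels, boxers 1, 3 and 4 and Boston terrier 2 have library numbers S18 to S21. Boxer 5 and Boston terriers 6 and 7 have library numbers S1 to S3, so breed and library series cannot be fully told apart. CD80 had 7.81, 4.02, 2.38 and 3.35 CPM in the 4 boxers and 1.79, 2.43 and 1.99 CPM in the 3 Boston terriers. CD86 had 10.4, 18.8, 13.6 and 10.6 CPM in the boxers and 8.19, 4.35 and 10.9 CPM in the Boston terriers. Boxer 4 overlapped with Boston terrier 6 for CD80, and boxers 1 and 5 lay below Boston terrier 7 for CD86. None of the 10 genes separated the boxers from the Boston terriers without overlap, which 7.31% of the genes tested did. The log2 fold change of boxers over Boston terriers was 1.06 for CD80 (SE 0.49, adjusted p = 0.795 by edgeR) and 0.75 for CD86 (SE 0.38, adjusted p = 0.805 by edgeR). Without boxer 1 the value for CD80 was 0.64, and that for PDCD1LG2 was -1.03. With each dog left out in turn, values ranged from 0.64 to 1.26 for CD80 and from 0.45 to 1.09 for CD86. They ranged from -1.03 to -0.33 for PDCD1LG2, from 0.26 to 0.81 for LGALS9 and from 0.12 to 0.44 for CD276. With all 7 dogs the other log2 fold changes were 0.43 for LGALS9, 0.23 for CD276, 0.10 for CD274, -0.28 for CD47 and -0.61 for PDCD1LG2. No member had an adjusted p under 0.05, as was the case for 0% of the 16633 genes tested by edgeR. At an unadjusted p under 0.05 the count was 0 of 7 members, against 6.23% of all genes and 3.37% counting those higher in boxers, while DESeq2 gave 39 genes an adjusted p under 0.05, none of them a member. For HAVCR2, boxers 1, 3 and 4 lay above all 3 Boston terriers and boxer 5 lay below them, at levels of 0.108 to 0.902 CPM.

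French bulldog 6 is a single library, so its differences from other dogs have no test. It had at least 4-fold more than the median of the other 10 French bulldogs, with 0.5 CPM added to both, for 5 of the 7 genes past the filter and for CTLA4. Of all 16495 genes past the filter, 6.39% were this much higher in it and 18.5% were this much lower. Without the added 0.5 CPM, the ratio to that median was 75.6 for PDCD1LG2, 31.7 for LGALS9, 25.6 for CD274, 25.5 for CD80 and 20.4 for CD86. CTLA4, the sixth, was 21.7 times the highest of the other 17 dogs. PDCD1LG2 was 26.2 times and CD274 15.5 times the highest other dog, so 2 of the 7 genes past the filter were at least 10-fold above all other dogs, against 0.988% of all genes past it. PDCD1 was 2.93 times the highest other dog. Of the 7 genes past the filter, 5 were highest in French bulldog 6, against 20.8% of all genes past it. This library held 87.3% of the summed French bulldog level of PDCD1LG2, 71.5% of that of CD274, 68.5% of that of CD80, 68.3% of that of LGALS9 and 63.4% of that of CD86. These 5 of the 7 genes past the filter had at least 50% of the sum in this library, against 2.46% of all genes past it, and CTLA4 had 91.8%.

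Marker genes of other cell types moved with these levels, and their part in them was not tested. The summed level of 16 macrophage and microglia markers was 9131 CPM in French bulldog 6, against 96.3 to 576 CPM in the other French bulldogs and 159 to 317 CPM in the comparison group. At least 4-fold more was seen for 14 of the 16, led by the scavenger receptor CD163 at 2897 CPM, while among the microglial markers CX3CR1 was lower at 2.50 CPM, P2RY12 was inside the range of the others at 6.87 CPM and TMEM119 was the highest of all dogs at 7.71 CPM, the next at 6.48 CPM. The 11 T cell markers summed to 178 CPM, against 3.26 to 17.7 and 3.24 to 48.5 CPM, and 9 of them were at least 4-fold higher. CD3D, which defines T cells, was at 0 in the median dog of both groups and at 6.46 CPM in French bulldog 6.

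The 9 genes induced by interferon-gamma summed to 1351 CPM in French bulldog 6, against 85.5 to 253 CPM in the other French bulldogs and 81.7 to 157 CPM in the comparison group, with 7 of them at least 4-fold higher. Of the dendritic cell markers 2 of 6, and of the B and plasma cell markers 2 of 7, were this much higher. The 10 oligodendrocyte lineage markers summed to 177 CPM, against 2674 to 9001 and 2338 to 4251 CPM, and 9 of them were at least 4-fold lower. All 7 neuronal markers and 4 of 5 astrocyte markers were also this much lower, and none of the 5 endothelial markers was at least 4-fold different. The tumor label of French bulldog 6 thus goes against its oligodendrocyte lineage markers.

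**Figure D3:**
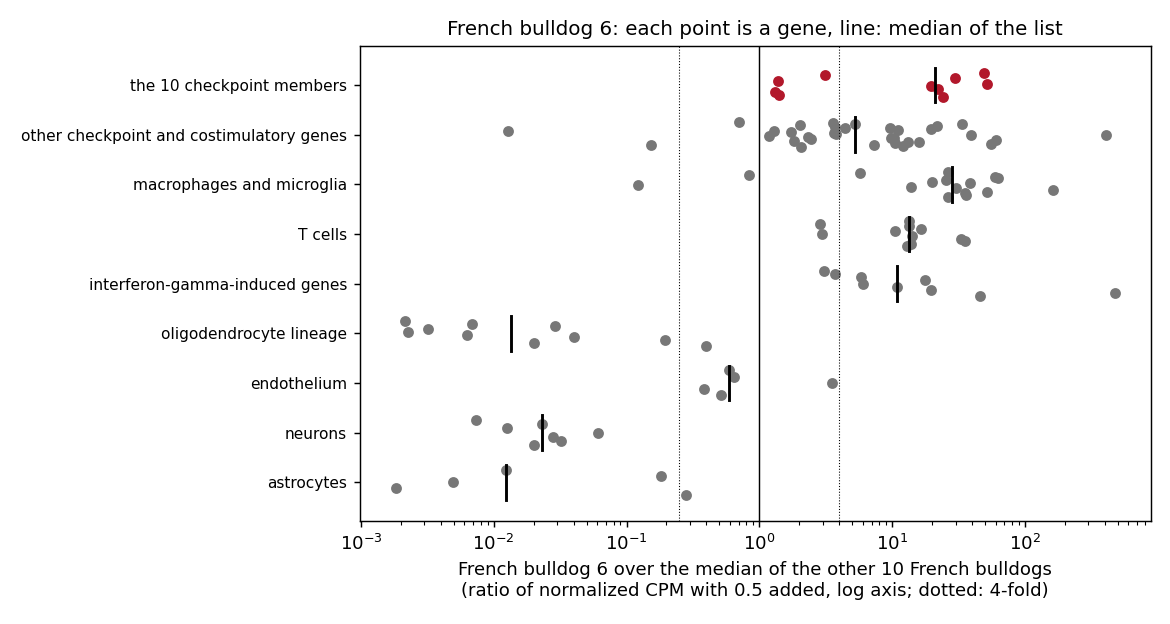
Ratio of French bulldog 6 to the median of the other 10 French bulldogs for each gene, with 0.5 CPM added, on a log axis, for the 10 checkpoint genes and for lists of other checkpoint genes and cell type markers, with the list median as a line. The checkpoint genes have a median ratio of 20.9, beside 28.3 for macrophage and microglia markers and 0.0135 for oligodendrocyte lineage markers.

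The relation of the ligands to macrophage, T cell and interferon-gamma markers was examined over 16 dogs, without French bulldog 6 and with French bulldogs 2 and 8 summed as 1 dog. For each marker list, the log2 CPM of its genes past the filter were turned into z-scores and averaged per dog. These genes were 16 macrophage and microglia genes, 8 interferon-gamma genes and 3 T cell genes (CD2, CD4 and CD5). Among the interferon-gamma genes, SOCS1 passed the filter only with French bulldog 6 included. With the pairs CD80 with CD86 and CD274 with PDCD1LG2, 23 relations were computed, and p-values come from 100000 permutations, two-sided, adjusted over the 23. Of these, 6 had an adjusted p under 0.05 for Pearson's r and 2 for Spearman's rho.

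LGALS9 and CD86 rose with the macrophage and microglia score, the only ligands with an adjusted p under 0.05 for it by r. For LGALS9, r was 0.92 (permutation p = 1e-05, the smallest that the permutations can give, adjusted p = 0.00023) and rho was 0.93 (permutation p = 1e-05, adjusted p = 0.000115). Within the French bulldogs r was 0.92, within the comparison group it was 0.90, and without the 2 dogs farthest from the median score, French bulldogs 4 and 1, it was 0.93. For CD86, r was 0.87 (permutation p = 3e-05, adjusted p = 0.000345) and rho was 0.90 (permutation p = 1e-05, adjusted p = 0.000115). Its r was 0.89 within the French bulldogs, 0.84 within the comparison group and 0.78 without those 2 dogs. Levels and scores come from the same libraries, so they share depth and normalization.

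The other 4 relations with an adjusted p under 0.05 by r did not pass by rho and were weak within the comparison group. CD80 and CD86 correlated at r = 0.71 (permutation p = 0.00254, adjusted p = 0.0195), with rho = 0.57 (permutation p = 0.0231, adjusted p = 0.133). This r was 0.89 within the French bulldogs, 0.29 within the comparison group and 0.72 without French bulldog 11 and boxer 1. CD274 and PDCD1LG2 correlated at r = 0.62 (permutation p = 0.00958, adjusted p = 0.0404), with rho = 0.58 (permutation p = 0.0208, adjusted p = 0.133), and r was 0.81 within the French bulldogs and 0.08 within the comparison group. This relation rested on French bulldog 7 and the sum of French bulldogs 2 and 8, since without them r was 0.38 (permutation p = 0.185).

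CD274 correlated with the interferon-gamma score at r = 0.62 (permutation p = 0.0105, adjusted p = 0.0404), with rho = 0.55 (permutation p = 0.0308, adjusted p = 0.141). Its r was 0.74 within the French bulldogs, 0.18 within the comparison group and 0.55 without the 2 farthest, French bulldog 11 and the sum of French bulldogs 2 and 8. Without SOCS1 in the score, r fell to 0.55 and no longer passed (permutation adjusted p = 0.0707). LGALS9 correlated with the 8-gene score at r = 0.68 (permutation p = 0.00387, adjusted p = 0.0223), with rho = 0.51 (permutation p = 0.0451, adjusted p = 0.148). Its r was 0.81 within the French bulldogs and 0.06 within the comparison group, and it rested on the same dogs, since r was 0.35 without them (permutation p = 0.221). Without SOCS1 its r over the 16 dogs was 0.71 (permutation adjusted p = 0.0147). CD276 and CD47 had no adjusted p under 0.05 with any score, with r of 0.31 and 0.12 for the macrophage and microglia score. Within the French bulldogs alone (n = 9), 7 relations had an adjusted p under 0.05. They included CD86 with the T cell score (r = 0.85, permutation adjusted p = 0.0168) and CD80 with the macrophage and microglia score (r = 0.83, permutation adjusted p = 0.0244), whose r was 0.57 in both cases over the 16 dogs and -0.13 and -0.19 within the comparison group. CD274 with the interferon-gamma score was not among them (permutation adjusted p = 0.0606). No relation with PDCD1, CTLA4 or HAVCR2 was computed, because they did not pass the filter.

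**Figure D4:**
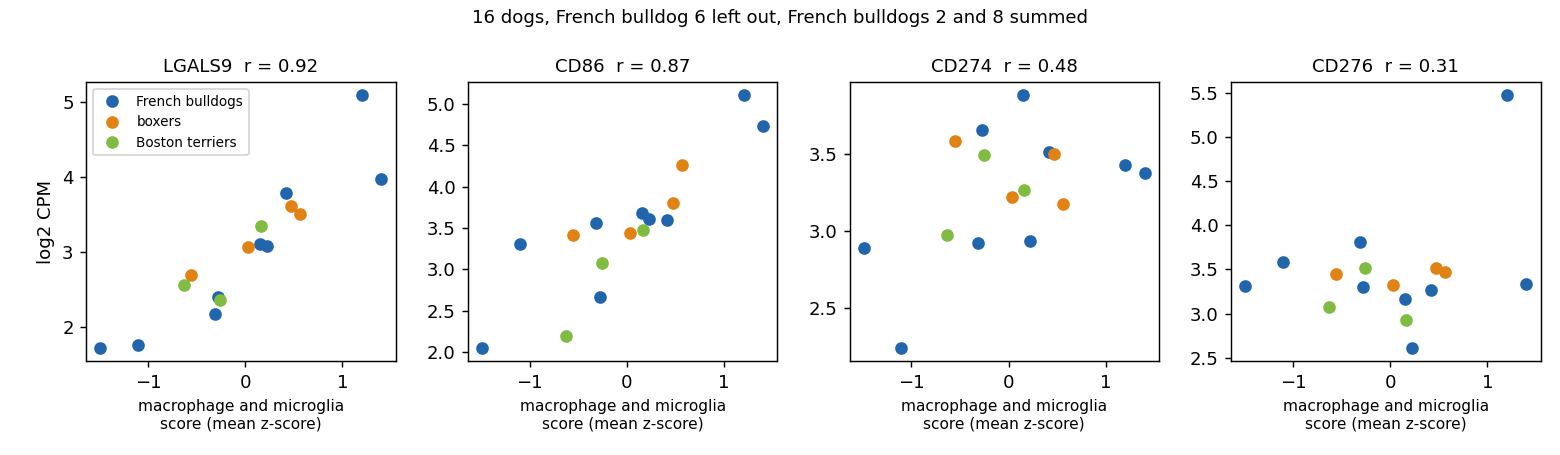
Log2 CPM of LGALS9, CD86, CD274 and CD276 against the macrophage and microglia score, a mean z-score, with a point for each of the 16 dogs colored by breed. LGALS9 and CD86 rise with the score (r = 0.92 and 0.87), and French bulldog 11 stands above the other dogs for CD276 (r = 0.31).

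For each of the 7 ligands the genes with the most similar pattern over the 16 dogs were listed, as a description without a test. CD86 was most like C1QB, a complement gene of macrophages and microglia (r = 0.93), followed by GPR34, a receptor of microglia (r = 0.88), and FCMR (r = 0.88). Without French bulldogs 11 and 4, the farthest for CD86, these values were 0.88, 0.85 and 0.80. LGALS9 was most like KCNQ1, MYLK and MNDA, the last a nuclear protein of myeloid cells, at r = 0.95, 0.95 and 0.93. CD80 was most like EGFR, PRCP and COL4A5 (r = 0.88, 0.84 and 0.82), and without French bulldog 11 and boxer 1 these values were 0.66, 0.70 and 0.70.

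CD276 was most like EXT2, SLC16A6 and HSD17B12, at r = 0.92, 0.90 and 0.90, without French bulldog 11 these values were 0.63, 0.54 and 0.43, and without French bulldogs 11 and 9, the farthest for CD276, they were 0.58, 0.15 and 0.35. CD274 was most like DCAKD, CCDC191 and FGF9 (r = 0.83, 0.81 and 0.79) and PDCD1LG2 like GLMN, AVIL and ALAS1 (r = 0.81, 0.79 and 0.78). Without the 2 dogs farthest from the median of the ligand, these values were 0.66, 0.56 and 0.56 for CD274 and 0.67, 0.69 and 0.70 for PDCD1LG2. CD47 was most like TERF2IP, SCCPDH and THRB (r = 0.85, 0.83 and 0.82). Neither of the programmed death ligands was among the 3 genes most like the other.

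Other checkpoint and costimulatory genes were examined as a list of 40, of which 33 were found by symbol and 16 passed the filter. None of the 16 had an adjusted p under 0.05 in edgeR over all 18 libraries, and 4 were higher in French bulldogs at an unadjusted p under 0.05, against 7.02% of all genes tested. Their median log2 fold change was 0.35. The smallest p-values were those of VSIG4, a macrophage receptor that restrains T cells (log2 fold change 2.58, SE 0.93, adjusted p = 0.433), and CD48, the ligand of CD244 (3.46, SE 1.26, adjusted p = 0.433). HMGB1, a nuclear protein that is also a ligand of TIM-3, came next (0.38, SE 0.18, adjusted p = 0.469).

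Without French bulldog 6, the log2 fold change of VSIG4 was 0.80 and that of CD48 was 0.60, while that of HMGB1 was 0.38 (unadjusted p = 0.0457, adjusted p = 0.450 by edgeR). The smallest p-value was then that of CEACAM1, another ligand of TIM-3, at -1.09 (SE 0.39, adjusted p = 0.387 by edgeR), where it was -0.19 with French bulldog 6. HMGB1 came next, and after it the adenosine receptor gene ADORA2A at -0.62 (SE 0.32, adjusted p = 0.489 by edgeR). Again 0 of 16 genes had an adjusted p under 0.05, with 1 higher and 1 lower at an unadjusted p under 0.05, where 10.8% of all genes tested were past this limit. Between boxers and Boston terriers 17 were tested, 0 had an adjusted p under 0.05, and HMGB1 had the smallest p-value, at -0.50 (SE 0.19, adjusted p = 0.795 by edgeR), followed by CD226 at -0.88 and ENTPD1 at 0.96.

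In French bulldog 6, 18 of the 33 were at least 4-fold above the median of the other French bulldogs and 2 were at least 4-fold below. Of the 16 past the filter, 7 were this much higher and 2 this much lower, against 6.39% and 18.5% of all genes past the filter. The 5 highest by this ratio were IDO1, CD48, CD244, ICOS and VSIG4. IDO1, an interferon-induced enzyme of tryptophan breakdown, had 201 CPM in this library, 0 to 2.34 CPM in the other French bulldogs and 0 to 0.286 CPM in the comparison group. CD48 had 135 CPM, CD244 had 80.5 CPM, ICOS had 41.1 CPM and VSIG4 had 215 CPM, with no other dog above 4.61, 2.32, 2.00 and 20.1 CPM. The 2 lower genes were NT5E, the gene of the adenosine-producing enzyme CD73, at 4.06 CPM against 68.2 to 891 CPM in the other French bulldogs, and CD200, at 3.85 CPM against 10.6 to 39.0 CPM.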

How the data were processed

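RNASeq was performed on 18 HGO samples. The authors trimmed reads with Trimmomatic 0.33, mapped them with HISAT2 2.1.0 and counted them with featureCounts, and deposited raw counts per gene without normalization. Whether strand or multi-mapped reads were used in counting is not given in the sources used here. Groups were the breeds in the labels. The 10 genes and all lists were chosen with earlier results of these data known. Members were named whatever their values. Of the other checkpoint genes, those with an adjusted p under 0.05, the 3 with the smallest p in each comparison and the 5 highest in French bulldog 6 were named, and for each ligand the 3 genes with the highest r. CD163, CX3CR1, P2RY12, TMEM119, CD3D, OLIG2 and NKX2-2 were named after their values were seen.

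French bulldogs were compared with the other breeds by edgeR's quasi-likelihood test (edgeR 4.0.16, R 4.3.3) with TMM normalization and filterByExpr, two-sided, with Benjamini-Hochberg adjustment over all genes tested. DESeq2 1.42.0, the study's tool, and limma 3.58.1 were alternatives. At its default settings, used here, DESeq2 replaces outlying counts where groups are large enough, as the French bulldog and comparison groups were. The fits were tested on simulated counts. A prior count of 2 was used for log2 CPM. Gene order was taken from a RefSeq annotation of another assembly than that of the study, and no positions are given. SIRPA was not found by symbol.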

Additional observations from a re-analysis of the deposited data

Results flagged for a closer look

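In 30 groups of 4 to 10 dogs the highest and lowest dog were tested for their distance from the rest by Dixon's criterion, which chance passes in about 1 of 20 groups. French bulldog 6 was left out. French bulldog 11 stood above the other 9 French bulldogs for LGALS9 (33.6 CPM, the next dog 15.3), for CD276 (43.8 CPM, the next dog 13.7) and for CD80 (10.8 CPM, the next dog 4.68). Boxer 1 stood above the other 6 dogs of the comparison group for CD80 (7.81 CPM, the next dog 4.02). French bulldog 9 stood apart for CTLA4 with 1.39 CPM from 18 counts. Boxer 3 was also apart for CTLA4 among the boxers, at 0.0914 CPM, but this is 1 count against 0 in the others.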

How the results depend on the processing

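No member had an adjusted p under 0.05 under any alternative. Over all 18 libraries, 4 of the 196 recomputed log2 fold changes changed sign. Those were CD274 and PDCD1LG2, at -0.11 and -0.19 with DESeq2 and at -0.10 and -0.17 without French bulldog 6. With each dog left out in turn they ranged from -0.10 to 1.66 and from -0.17 to 2.77. DESeq2 called 58 genes at an adjusted p under 0.05 and had 0 of 10 members and 9.62% of all genes past an unadjusted p of 0.05. limma-voom called 2 genes, with 0 of 7 members and 9.25% of all genes past the unadjusted limit, upper quartile normalization called 2, with 2 of 7 members and 10.3%, and with no filter 5 of 10 members were past the unadjusted limit, with 11.6% of all genes. The comparison libraries are numbered S1 to S3 and S18 to S21 in the labels. French bulldogs against either series alone gave 0 genes and 0 members past the unadjusted limit, with 4.34% and 4.94% of all genes. In these fits the log2 fold change was 2.59 and 2.64 for PDCD1LG2 and 2.02 and 1.41 for CD86. Summing French bulldogs 2 and 8 gave 0 genes and 4 members (9.56% of all genes past the unadjusted limit), and leaving out each dog gave 0 to 7 genes and 0 to 5 members at the unadjusted limit, with 7.79% to 12.8% of all genes. The members reached 0 without French bulldog 6, boxer 4, boxer 5, Boston terrier 2 or Boston terrier 6 (10.8%, 9.05%, 7.82%, 9.58% and 7.79% of all genes), and 5 without French bulldog 8 (9.24%). Without any of those boxers or Boston terriers, the log2 fold change stayed at 2.44 to 2.64 for PDCD1LG2 and at 1.49 to 1.74 for CD86. Without French bulldog 6 these were -0.17 and 0.36. 7 genes were called without French bulldog 9.

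The labels number dogs from 1 in both groups. Deviations of same-numbered dogs correlated at -0.50 to 0.21 over the numbers 1 to 7. Pairs with different numbers were not computed, so whether same-numbered dogs share more than a number was not tested. With a replicate block over these 14 libraries, 0 genes were called and 0 members (6.03% of all genes) were past the unadjusted limit, against 5 genes and 5 members (10.8% of all genes) with no block.

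Without French bulldog 6, 3 of 49 log2 fold changes changed sign: LGALS9 was -0.10 with limma-voom, and LGALS9 and CD80 were -0.18 and -0.19 when French bulldog 11 was also left out. The genes called were 0 with French bulldogs 2 and 8 summed, 62 with DESeq2 and 5 without French bulldog 11. With no filter 1 of 10 members, CTLA4, was past the unadjusted limit, with 10.5% of all genes, and by DESeq2 CTLA4 was not past it (unadjusted p = 0.0645, and 0.0918 with French bulldog 6). CD276 fell from 0.47 to 0.03 with DESeq2 and to 0.04 without French bulldog 11. These alternatives without French bulldog 6, the correlations of similar genes without French bulldog 11 or the 2 farthest dogs, the score without SOCS1, and the fit of the 14 libraries with no block were chosen after seeing the data. For boxers against Boston terriers, DESeq2 called 39 genes and had 1 of 10 members and 5.34% of all genes past the unadjusted limit. Leaving out each dog gave 0 genes and 0 to 1 members past that limit, with 3.84% to 9.78% of all genes, and 2 of 70 values changed sign, CD274 (-0.0395 to 0.25) and CD47 (-0.45 to 0.0018), both without Boston terrier 6.

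Of the relations, 6 had an adjusted p under 0.05, against 2 by rho, 7 within the French bulldogs, 0 within the comparison group and 3 without the 2 farthest dogs. Within the comparison group r was negative for PDCD1LG2, CD80 and CD47 with the macrophage score (-0.34, -0.19 and -0.067), for CD274, LGALS9, CD276, CD86 and CD47 with the T cell score (-0.20, -0.39, -0.29, -0.13 and -0.11) and for PDCD1LG2, CD80 and CD47 with the interferon-gamma score (-0.63, -0.57 and -0.47). Without the 2 farthest dogs r was -0.22 for CD80 and -0.56 for CD47 with the interferon-gamma score and 0.016 for CD47 with the T cell score, which was 0.13 with French bulldog 6. With French bulldog 6 added, r rose from 0.05 to 0.69 for CD274 with the T cell score. With the interferon-gamma score it rose from 0.33 to 0.83 for PDCD1LG2 and from 0.28 to 0.77 for CD80. For CD276 it fell with the macrophage, T cell and interferon-gamma scores, to 0.27, 0.37 and 0.42. By rho, CD274 with the T cell score was -0.015 and CD47 with the interferon-gamma score was -0.044.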
